A study of Mus musculus with 6 samples.

Results

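Actin and tubulin isotypes are the near-identical gene copies from which a cell builds its filaments and microtubules. Such genes were listed by symbol for description in embryonic mouse cortex, the cytoplasmic actins Actb and Actg1, the α-tubulins Tuba1a and Tuba1b, the β-tubulins Tubb2a, Tubb2b, Tubb3, Tubb4b and Tubb5, and the γ-tubulin Tubg1. Of these 10, 8 were among the 17068 genes of the count table, and Tuba1a and Tubb3 were not analysed here. Bulk RNA-Seq was made from lateral cortex of female c57/bl6 embryos at embryonic day (E)12.5, with 4 Cre-negative controls and 2 embryos labelled Foxp1cKO. Controls 1, 2 and 4 were Foxp1 fl/+, control 3 was Foxp1 fl/fl, and both Foxp1cKO embryos were Foxp1 fl/fl;Emx1Cre, so every library carried at least 1 floxed Foxp1 allele. Emx1Cre recombines the floxed gene in progenitors of the dorsal telencephalon and in the cells they give rise to, and vessels, blood and cells arriving from ventral territories keep it. The comparison asked whether the isotypes, and the neuronal against the ubiquitous tubulins, differed between the groups.

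Microtubules are polymers of α- and β-tubulin dimers that nucleate on rings of γ-tubulin, and actin filaments are polymers of actin monomers. Neurons assemble microtubules largely from Tuba1a, Tubb2a, Tubb2b and Tubb3, the last being the antigen of the TUJ1 antibody, whereas Tuba1b, Tubb4b and Tubb5 are made in many cell types, dividing progenitors included. In the E12.5 cortex radial glia divide at the ventricle and the first neurons collect above them, so the mixture of isotypes follows the mixture of cells, and in bulk samples fewer cells of a type and less RNA per cell cannot be told apart.

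The coding sequences of several isotypes were so alike that a read can match more than 1 gene. Tuba1a and Tuba1b were identical at 98.3% of aligned coding bases (1333 of 1356), with an identical run of 281 bases. Tubb2a and Tubb2b were identical at 96.5% (1291 of 1338), with a run of 551 bases, and the remaining pairs of β-tubulins at 81.2% to 84.5%. Actb and Actg1 were identical at 88.7% (1000 of 1128), and their longest shared run was 62 bases. The stretches below, from GENCODE M21 transcripts on GRCm38, show where the actins and the pair of Tubb2a and Tubb2b part, with capitals at the bases that differ between the members of a pair. The actins are shown at their first 60 coding bases, since the proteins differ at their amino ends, and 9 of the 60 bases differed.
Actb: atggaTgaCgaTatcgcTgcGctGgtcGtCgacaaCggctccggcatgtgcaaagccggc
Actg1: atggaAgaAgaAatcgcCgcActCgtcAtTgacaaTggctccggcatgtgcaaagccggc
The β-tubulins are shown at their last 60 coding bases, which encode the acidic tail where isotypes differ most and where glutamate chains are added.
The tails of Tubb2a and Tubb2b differed at 3 bases, none of which changes the encoded amino acid. This pair thus does not part in its protein tail, and 5 of its first 60 coding bases differed.
Tubb2a: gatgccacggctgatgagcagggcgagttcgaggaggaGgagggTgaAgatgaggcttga
Tubb2b: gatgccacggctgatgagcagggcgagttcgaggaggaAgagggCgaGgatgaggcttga
The tails of the other β-tubulins are given in lower case throughout, since they have no close partner among the 10 genes.
Tubb3: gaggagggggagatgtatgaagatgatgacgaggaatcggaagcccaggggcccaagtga
Tubb4b: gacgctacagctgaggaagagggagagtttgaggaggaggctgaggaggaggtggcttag
Tubb5: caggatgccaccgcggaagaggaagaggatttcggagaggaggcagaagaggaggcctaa

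Each main transcript was divided into windows of 150 bases, the read length, and a window was called shared when it also occurred, base for base, in an annotated transcript of another gene. No window of Actb, Tubb3 or Tubb5 was shared, and 0.907% of those of Tubg1 were, with Tubg2. For Tuba1b, 57.9% of windows were shared, mostly with Tuba1c (40.7% of its windows), and 17.5% were shared with Tuba1a. For Tubb2a and Tubb2b, the shared windows were 27.9% and 20.1%, and all of them were shared between the pair. Of the windows of Actg1, 43.5% were shared, 39.3% with the processed pseudogene Gm12715, and of those of Tubb4b, 16.8% were shared with the pseudogene Tubb4b-ps1. Paired reads from a longer fragment can be placed where a single read cannot, so these shares describe the sequence and not the reads lost. The authors used uniquely mapped reads, so a read that fitted more than 1 place was left out and not divided between copies. Values of Actg1, Tuba1b, Tubb2a, Tubb2b and Tubb4b may therefore be too low, by an amount that was not measured.

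The genes also differed in whether another gene is annotated over them. All exon bases of Tubb3 (chr8:123411424-123422015, plus strand) lie in an intron of the longer gene Gm20388 on the same strand. Of the exon bases of Tuba1a (chr15:98949837-98953703, minus strand), 91.6% lie within the body of Gm49450, and the same holds for 62.0% of those of Tuba1b. Across protein-coding genes of GENCODE M21, 3 of 192 that lie wholly in same-strand introns of another gene were among the 17068 genes (1.56%), against 8494 of 14067 without any overlap (60.4%). Of the 460 genes lying wholly within another gene's body on the same strand, introns or exons, 51 (11.1%) were among them. Genes nested in another gene on the same strand were thus seldom among the genes counted, and the part this has in the counts of Tuba1b was not tested.

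**Figure D1:**
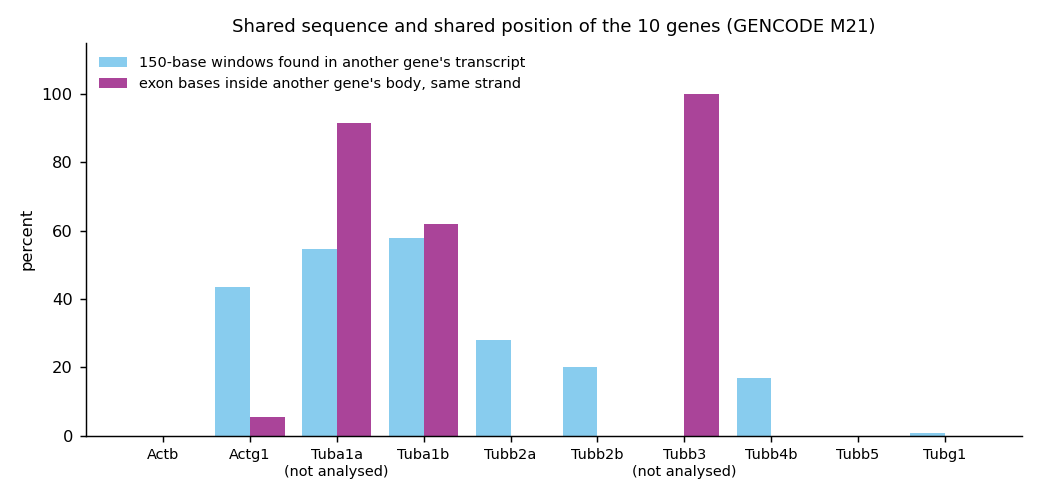
Bars give, for each of the 10 genes on the x axis, the percent of 150-base windows of the main transcript found in another gene's transcript (light blue) and the percent of exon bases inside another gene's body on the same strand (purple), both from GENCODE M21. Tuba1a and Tubb3, which were not analysed here, stand at 91.6% and 100% for position, Tuba1b follows at 62.0%, and Actb, Tubb5 and Tubg1 are at or near 0 for both.

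Library totals ran from 50076008 to 78346979 counts, and 3 counts, the floor used here, correspond to 0.0381 to 0.0596 CPM (counts scaled to library size, with TMM factors). The smallest count of any of the 8 genes in a library was 2681, for Tubg1, so counting error was small beside the spread between embryos. Foxp1 itself, the targeted gene, was at 67.7 ± 9.18 CPM in the controls (n = 4, SD) and 79.96 ± 4.52 CPM in the Foxp1cKO-labelled libraries (n = 2, SD). It was thus not lower in the Foxp1cKO-labelled libraries (log2 fold change 0.24, standard error (SE) 0.129, edgeR adjusted p = 0.468). Gene-level counts do not show whether an exon is missing, so the groups carry the names in the labels. P-values measure the spread between these embryos. With 4 libraries against 2, a two-sided exact permutation test on ranks could give no p below 0.133, so none was used.

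Levels of different genes were compared as CPM per kb of exon, over all 6 libraries. Whether reads in introns were counted is not given in the sources used here. If they were, exon length is too short a divisor, and the levels, ranks, ratios and shares per kb would differ. Reads lost to shared sequence would also lower the values of Actg1, Tuba1b, Tubb2a, Tubb2b and Tubb4b, by an amount not measured. For Tuba1b, 62% of exon bases also lie within the body of Gm49450, and the part of this in its level was not tested. Tubb5 stood highest at 889 ± 56.0 CPM per kb (n = 6, SD), followed by Tubb2b at 771 ± 100.2, Actb at 625 ± 65.0 and Actg1 at 245 ± 26.7. Each of these was above the next in 6 of 6 libraries. Tubb4b at 96.3 ± 12.8 CPM per kb, Tuba1b at 87.1 ± 16.9 and Tubb2a at 82.4 ± 20.6 were not separated. Tubb4b exceeded Tuba1b in 4 of 6 libraries, and Tuba1b exceeded Tubb2a in 3 of 6. Tubg1, which seeds microtubules and does not build their walls, was lowest at 24.9 ± 2.43 CPM per kb in each library. With the length of the main transcript in place of all exon bases, Actb moved above Tubb2b, so the order of these 2 depends on the length chosen. Among the 4 β-tubulins analysed, Tubb5 and Tubb2b together made up most of the summed level. In the controls Tubb5 held 48.5% ± 2.42 of the summed CPM per kb (n = 4, SD), Tubb2b 41.6% ± 2.57, Tubb4b 5.46% ± 1.15 and Tubb2a 4.49% ± 0.969. In the Foxp1cKO-labelled libraries these shares were 48.5% ± 1.77 (n = 2, SD), 42.3% ± 2.04, 4.94% ± 0.469 and 4.32% ± 0.196, each within 1 SD of the controls.

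No isotype, neuronal or ubiquitous, passed the test between the groups. Across all genes edgeR's quasi-likelihood test called 26 of 17068 at an adjusted p under 0.05, or 0.152%, each with more counts in the Foxp1cKO-labelled libraries. Of the 8 isotypes, 0 passed this threshold, 0 passed with DESeq2, which called 2.97% of all genes, and 0 with limma, which called 0.158%. Of the 8, 1 (Tubg1) had an unadjusted edgeR p under 0.05, as had 13.0% of all genes. Their log2 fold changes, Foxp1cKO minus Control, ran from -0.34 to 0.0094 with a median of -0.14, and 7 of 8 were below 0. The median of all genes was -0.0044, with 50.7% below 0. Tubg1 was the single isotype with both Foxp1cKO libraries below every control, and 13.1% of all genes had that arrangement.

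Tubb2a and Tubb2b, the neuron-enriched β-tubulins encoded side by side on chromosome 13, varied more among the controls than between the groups. Tubb2a (chr13:34074274-34078007, minus strand) was at 124.1, 157.0, 182.6 and 88.7 CPM in controls 1 to 4, and at 112.9 and 130.4 CPM in the Foxp1cKO-labelled libraries. Control 3 was highest and control 4 lowest, a range of 2.06-fold, and both Foxp1cKO libraries lay between them. The log2 fold change was -0.18 (SE 0.265, 95% interval -0.81 to 0.44, edgeR adjusted p = 0.804), and it was -0.035 without control 3 and -0.35 without control 4. The SD of Tubb2a among the controls, 0.454 on the log2 CPM scale, was larger than that of 82.2% of all genes. Tubb2b (chr13:34126748-34130466, minus strand), a main β-tubulin of migrating neurons, was at 1744, 1935, 2078 and 1455 CPM in controls 1 to 4. The libraries labelled Foxp1cKO had 1572 and 1822 CPM, again between control 4 and control 3, the lowest and highest. Its log2 fold change was -0.088 (SE 0.153, 95% interval -0.45 to 0.27, edgeR adjusted p = 0.844). The ratio of Tubb2b to Tubb2a per kb was 9.50 ± 1.55 in the controls (n = 4, SD) and 9.79 ± 0.0268 in the Foxp1cKO-labelled libraries (n = 2, SD). Control 3, where both genes were highest, had the lowest ratio, 7.99, and control 4 the highest, 11.5.

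The ubiquitous tubulins had lower means in the Foxp1cKO-labelled libraries, by more than the SD of the controls on the log2 scale for each, and none passed the test. Tuba1b (chr15:98931425-98934565, minus strand), a broadly expressed α-tubulin, was at 176.8, 165.8, 145.0 and 214.5 CPM in controls 1 to 4. The libraries labelled Foxp1cKO had 120.0 and 157.6 CPM, of which the first was below every control and the second was not. The log2 fold change was -0.34 (SE 0.175, 95% interval -0.75 to 0.076, edgeR adjusted p = 0.455). Without Foxp1cKO replicate 1 it was -0.15, and without Foxp1cKO replicate 2 it was -0.56. Tubb4b (chr2:25222160-25224702, minus strand), a broadly used β-tubulin that also serves cilia, was at 223.3, 217.2, 172.6 and 233.8 CPM in controls 1 to 4. With 184.7 and 174.9 CPM, the Foxp1cKO-labelled libraries lay below 3 controls and above control 3. Its log2 fold change was -0.24 (SE 0.127, 95% interval -0.54 to 0.065, edgeR adjusted p = 0.470). Tubb5 (chr17:35833921-35838306, minus strand), a β-tubulin of progenitors and neurons alike, ranked 4 among all genes by CPM. It was at 3144, 3168, 3057 and 2756 CPM in controls 1 to 4 and at 2775 and 2854 CPM in the Foxp1cKO-labelled libraries. Both lay just above control 4, and the log2 fold change was -0.11 (SE 0.0939, 95% interval -0.33 to 0.11, edgeR adjusted p = 0.655). Tubb5 was also among the steadier genes, with an SD among the controls of 0.0928 on the log2 CPM scale, larger than that of 20.3% of genes.

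Tubg1 (chr11:101119938-101126419, plus strand), the main γ-tubulin of the centrosome, was at 57.1, 63.5, 55.0 and 61.5 CPM in controls 1 to 4. The libraries labelled Foxp1cKO had 53.3 and 48.5 CPM, both below the lowest control, which was control 3. The log2 fold change was -0.22 (SE 0.0915, 95% interval -0.44 to -0.0050, unadjusted p = 0.0461, edgeR adjusted p = 0.374). The difference did not pass after adjustment over all genes.

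The cytoplasmic actins did not differ detectably. Actb (chr5:142903115-142906754, minus strand), β-actin of the cell cortex and growth cone, was at 1782, 1860, 1811 and 1403 CPM in controls 1 to 4 and at 1607 and 1581 CPM in the Foxp1cKO-labelled libraries. Control 4 was lowest of all, and the other 3 controls were above both Foxp1cKO libraries. The means were 1714 ± 210.0 CPM (n = 4, SD) and 1594 ± 18.97 CPM (n = 2, SD), with a log2 fold change of -0.10 (SE 0.128, 95% interval -0.41 to 0.20, edgeR adjusted p = 0.762). Actg1 (chr11:120345690-120348542, minus strand), its γ-actin counterpart, was at 618.2, 734.2, 708.3 and 533.8 CPM in controls 1 to 4. The libraries labelled Foxp1cKO, at 646.8 and 659.0 CPM, lay near the middle of the controls. Its log2 fold change was 0.0094 (SE 0.135, 95% interval -0.31 to 0.33, edgeR adjusted p = 0.984). The ratio of Actb to Actg1 per kb was 2.86, 2.51, 2.54 and 2.61 in controls 1 to 4 and 2.47 and 2.38 in the Foxp1cKO-labelled libraries. Both Foxp1cKO ratios were below every control, by a small margin from control 2, and this ratio was given after the values were seen, without a test. The intervals of all 8 isotypes hold 0 except that of Tubg1, and the widest, that of Tubb2a, leaves room for a change of 0.81 on the log2 scale, so equal levels are not shown.

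**Figure D2:**
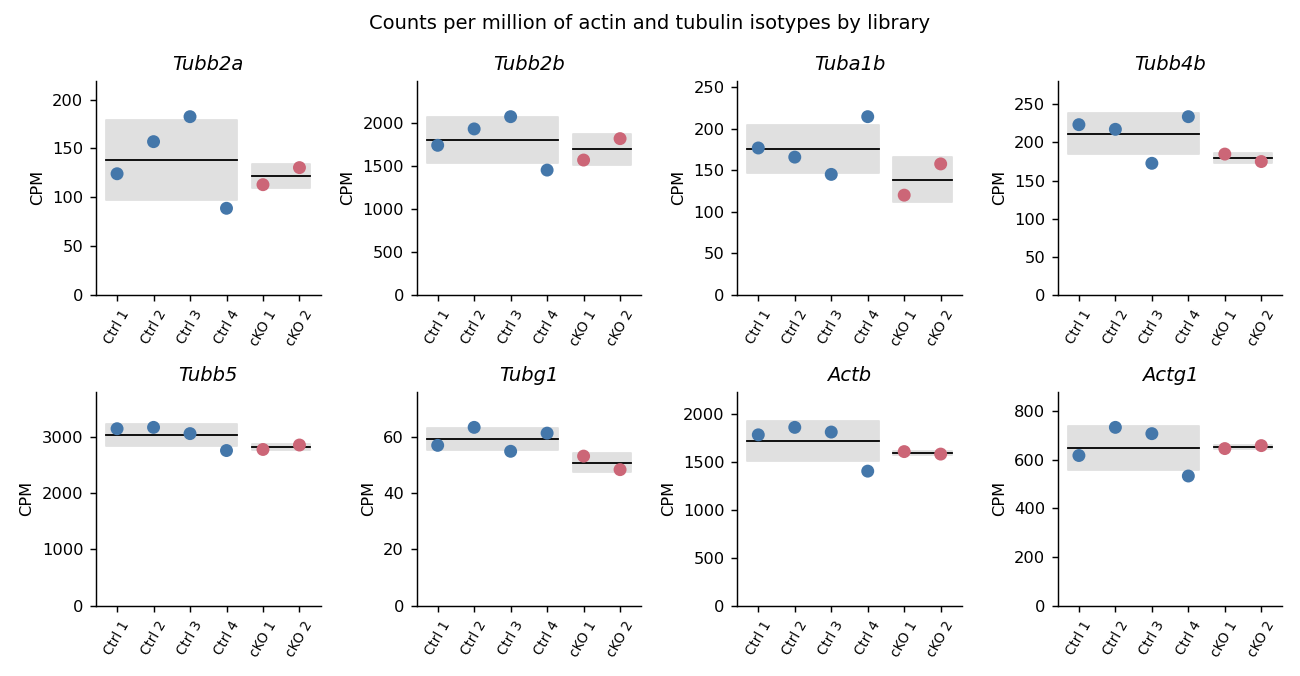
Each panel gives CPM (y axis, from 0) of 1 isotype in the 6 libraries (x axis; Ctrl is control, cKO is labelled Foxp1cKO). Points are libraries, lines are group means and grey bands are ± 1 SD (n = 4 and n = 2), and the Foxp1cKO points fall inside the range of the controls except both points of Tubg1 and 1 point of Tuba1b.

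To contrast neuronal with ubiquitous isotypes within each library, the mean log2 CPM of Tuba1b, Tubb4b and Tubb5 was subtracted from that of Tubb2a and Tubb2b. A higher index means relatively more of the neuron-enriched genes, and library scaling cancels in it. The index was -0.10, 0.18, 0.54 and -0.53 in controls 1 to 4, and 0.094 and 0.19 in the Foxp1cKO-labelled libraries. Control 3 was highest and control 4 lowest, with both Foxp1cKO libraries between. The means were 0.024 ± 0.450 (n = 4, SD) and 0.14 ± 0.0653 (n = 2, SD), a difference of 0.12, well within the SD of the controls. Leaving out control 4 turned the difference to -0.067, and leaving out control 3 raised it to 0.29. Under 4 other ways of building the index set with the main one, and 1 added after the data were seen, the difference was 0.042 to 0.12. Those ways counted Tubb2a or the actins as ubiquitous, used β-tubulins alone, summed CPM per kb, or added the neuronal Tubb4a and left out Tuba1b, and in each control 3 was highest and control 4 lowest.

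Control 3 was likewise highest and control 4 lowest for markers of neurons. The summed CPM of 12 neuron markers, such as Tbr1, Neurod6 and Elavl3, was 2374, 2724, 2774 and 1585 in controls 1 to 4, and 2050 and 2351 in the Foxp1cKO-labelled libraries. The sum of 9 radial glia markers, such as Pax6, Nes and Fabp7, went the other way, lowest in control 3 (2439) and highest in control 4 (2949), with 2891 and 2780 in the Foxp1cKO-labelled libraries. Both marker lists were well expressed in each library, and the ranges of their sums overlapped between groups. Taken singly, 7 of the 9 radial glia markers had a log2 fold change above 0 and 2 had one below. Both Foxp1cKO libraries were above every control for 2 of the 9, beside 11.5% of all genes. An unadjusted edgeR p under 0.05 was found for 3 of the 9, beside 13.0% of all genes, and 0 passed after adjustment. Of the 12 neuron markers 5 were above 0 and 7 below, and the groups overlapped for each. Single controls also stood apart in other markers. Markers of ventral telencephalon summed to 637.9 CPM in control 3 against 178.2 to 277.0 in the other controls and 298.4 to 427.3 in the Foxp1cKO-labelled libraries. Red blood cell markers summed to 3325 CPM in control 4, 966.9 to 1242 in the other controls and 3663 to 3926 in the Foxp1cKO-labelled libraries, which is above every control. The sum of mural cell markers was also higher in the Foxp1cKO-labelled libraries, at 103.9 to 108.0 CPM against 64.1 to 83.1. By gene, 2 of these 4 had both Foxp1cKO libraries above every control, beside 11.5% of all genes, and 0 passed edgeR's adjusted threshold. Intermediate progenitor markers summed to 588.0 and 675.3 CPM in the Foxp1cKO-labelled libraries, against 622.5 to 841.7 in the controls. All 4 of them had a log2 fold change below 0, as had 50.7% of all genes, and 0 passed. The sums of endothelial markers overlapped, at 178.4 to 218.1 CPM against 120.1 to 186.3 in the controls. Singly, 1 of these 6 markers passed edgeR's adjusted threshold, higher in the Foxp1cKO-labelled libraries, beside 0.152% of all genes called. For 2 of the 6 both Foxp1cKO libraries were above every control, beside 11.5% of all genes. Their log2 fold changes were above 0 for 4 and below 0 for 2. Control 1 had the highest sum of mesenchyme markers, 258.0 CPM against 37.5 to 158.1 in the other libraries, and Clic6, the single choroid plexus marker in the table, was at 2.12 CPM there against 0.0960 to 0.499. The part of these markers in the isotype values was not tested, and the genotype of control 3, which alone among the controls was Foxp1 fl/fl, cannot be told apart from the embryo.

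**Figure D3:**
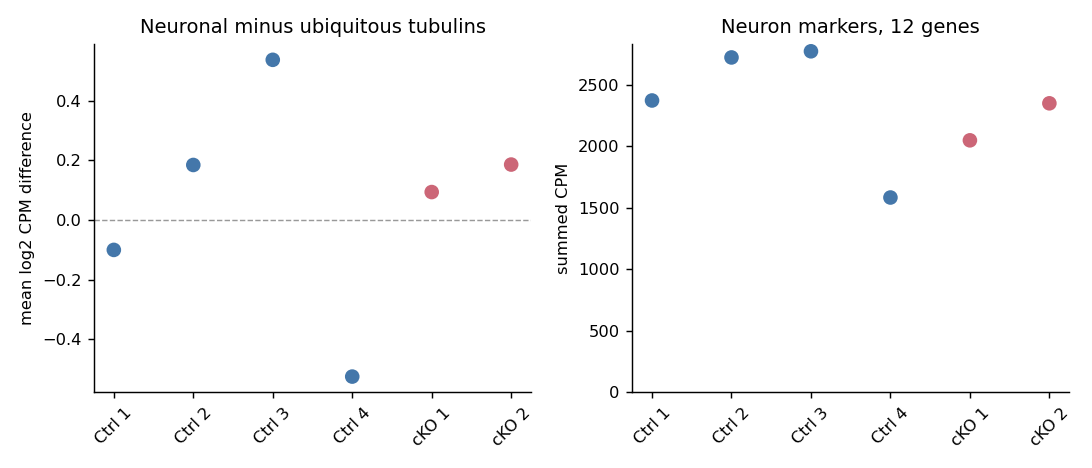
The left panel gives the index of neuronal minus ubiquitous tubulins (difference of mean log2 CPM, y axis) and the right panel the summed CPM of 12 neuron markers (y axis, from 0) in the 4 controls and 2 libraries labelled Foxp1cKO (x axis; each point is 1 library). Control 3 is highest and control 4 lowest in both panels, with the Foxp1cKO libraries between.

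Other genes of the cytoskeleton were described from lists of symbols, each read against all genes, of which 0.152% were called, 13.0% had an unadjusted p under 0.05, 50.7% were below 0, 13.1% had both Foxp1cKO libraries below every control and 11.5% had both above. Of the 100 listed genes among the 17068, 0 passed edgeR's test and 19 had an unadjusted p under 0.05. DESeq2 with group alone called 2 of them, Tbcb and Arpc5l, both lower, beside 2.97% of all genes, and limma called 0. The paper, whose DESeq2 model included litter, lists Arpc5l, Capza1 and Tubd1 among its top downregulated genes. Within each list, the 2 genes with the largest change at a mean of at least 10 CPM are named.

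The folding chaperones were the list in which every value lay on the same side. CCT subunits fold newly made actin and tubulin, prefoldin delivers them, and the tubulin cofactors assemble the dimer. All 19 had a log2 fold change below 0, with a median of -0.16 and a range of -0.36 to -0.043, 10 of them had both Foxp1cKO libraries below every control, and 5 had an unadjusted p under 0.05. Tbcb, a cofactor of α-tubulin, was at 64.8, 68.4, 68.0 and 60.3 CPM in controls 1 to 4 and at 48.1 and 53.7 CPM in the Foxp1cKO-labelled libraries. The groups did not overlap, and the log2 fold change was -0.36 (SE 0.0899, edgeR adjusted p = 0.242, DESeq2 adjusted p = 0.0455). Cct3, a CCT subunit, was at 379.6, 364.8, 324.5 and 424.2 CPM in the controls and at 283.8 and 317.8 CPM in the Foxp1cKO-labelled libraries (log2 fold change -0.31, SE 0.118, edgeR adjusted p = 0.351). Among the controls 11 of the 19 chaperones were highest in control 4 and lowest in control 3, the reverse of the neuron markers, against 22.3% of all genes, and the part of the cell mixture in these values was not tested. All 19 values stayed below 0 in 12 of the 14 other fits. With libraries scaled to Actb 13 of 19 did, and without Foxp1cKO replicate 1 16 of 19 did.

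Most genes of neuronal microtubules had the same order of controls 3 and 4 as Tubb2a and Tubb2b. These 16 genes include Dcx and Map2, which bind microtubules, and Stmn2 and the Dpysl family, which act on their growth. Their median log2 fold change was -0.013, with 9 below 0 and 7 above, and 0 had groups that did not overlap. Stmn3, a stathmin that binds free tubulin, was at 90.3 to 165.7 CPM in the controls and 99.3 and 107.0 CPM in the Foxp1cKO-labelled libraries (log2 fold change -0.31, SE 0.225, edgeR adjusted p = 0.587). Dpysl3, a collapsin response mediator protein, was at 869.4 to 1541 CPM in the controls and 985.9 and 1052 CPM in the Foxp1cKO-labelled libraries (log2 fold change -0.29, SE 0.213, edgeR adjusted p = 0.583). Of the 16, 12 were highest in control 3 and lowest in control 4 among the controls, against 18.98% of all genes, an order counted after the values were seen.

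Among 8 further tubulins in the table of the 12 listed, the median log2 fold change was -0.20, and 3 had both Foxp1cKO libraries below every control. Tuba1c, an α-tubulin that shares windows with Tuba1b, was at 218.7, 129.1, 203.6 and 136.7 CPM in controls 1 to 4 and at 104.9 and 122.5 CPM in the Foxp1cKO-labelled libraries. Both were below the lowest control (log2 fold change -0.60, SE 0.240, edgeR adjusted p = 0.368), while the controls themselves ranged over 1.69-fold. Tuba4a, a lowly expressed α-tubulin here, had overlapping groups (log2 fold change -0.30, SE 0.317, edgeR adjusted p = 0.721). The 3 muscle-type actins in the table of 5 listed, Acta1, Acta2 and Actg2, were each under 10 CPM in every library. Acta2, the actin of smooth muscle and pericytes, was at 0.937, 0.193, 0.165 and 2.73 CPM in controls 1 to 4 and at 2.70 and 5.43 CPM in the Foxp1cKO-labelled libraries, so that the groups overlapped at control 4. It is named after its values were seen, and its change did not pass (log2 fold change 2.01, SE 0.992, edgeR adjusted p = 0.438).

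The 8 partners of γ-tubulin in its ring complex had a median log2 fold change of -0.058, with 6 below 0. Mzt1, a small ring component, was higher in both Foxp1cKO libraries than in any control (log2 fold change 0.26, SE 0.0906, edgeR adjusted p = 0.321). Tubgcp6, a ring subunit, was lower in both (log2 fold change -0.22, SE 0.0825, edgeR adjusted p = 0.350). Among 18 enzymes that modify tubulin, 15 were below 0 with a median of -0.15, and 3 had groups that did not overlap. Ttl, which restores the tyrosine at the end of α-tubulin, was at 60.8, 62.8, 62.2 and 46.3 CPM in controls 1 to 4 and at 43.8 and 44.4 CPM in the Foxp1cKO-labelled libraries. Control 4 lay just above the Foxp1cKO libraries, and the log2 fold change was -0.40 (SE 0.136, edgeR adjusted p = 0.319). Without control 4, Ttl passed the threshold (log2 fold change -0.49, edgeR adjusted p = 0.0489). That fit called 96 of all 17068 genes, against 26 with every library, and left out the control nearest to the Foxp1cKO libraries for Ttl. Tpgs1, a subunit of the polyglutamylase complex, was below every control in both (log2 fold change -0.27, SE 0.111, edgeR adjusted p = 0.371).

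Among 28 regulators of actin, 17 were below 0 and 11 above, with a median of -0.095. Both Foxp1cKO libraries were below every control for 8 of them and above for 2. Arpc5l, a subunit of the Arp2/3 complex that branches actin filaments, was at 60.7, 56.3, 56.7 and 65.3 CPM in controls 1 to 4 and at 42.9 and 47.3 CPM in the Foxp1cKO-labelled libraries. The groups did not overlap, and the log2 fold change was -0.41 (SE 0.0947, edgeR adjusted p = 0.242, DESeq2 adjusted p = 0.0119). Capza1, which caps filament ends, was at 100.6 to 133.5 CPM in the controls and at 89.97 and 92.7 CPM in the Foxp1cKO-labelled libraries (log2 fold change -0.40, SE 0.118, edgeR adjusted p = 0.287).

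**Figure D4:**
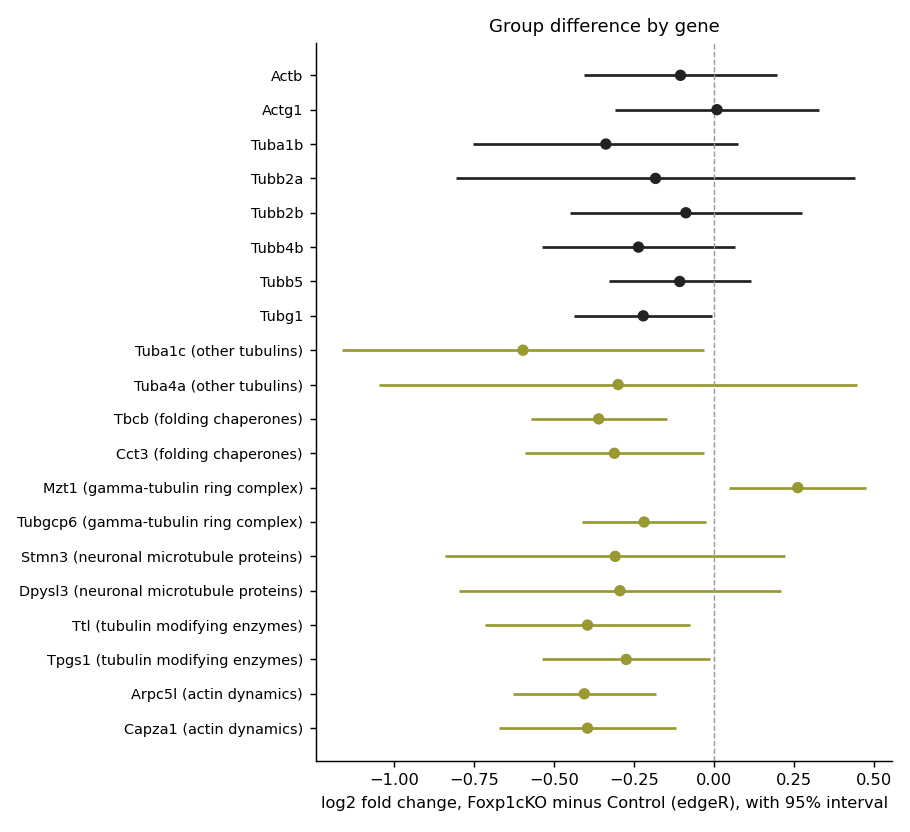
Points give the log2 fold change, Foxp1cKO minus Control (x axis), with its 95% interval from edgeR, for the 8 isotypes (black) and the named genes of 6 lists (olive, list in parentheses). The intervals of 7 isotypes cross 0, that of Tubg1 ends just below it, and no gene shown had an edgeR adjusted p under 0.05.

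Actins and tubulins are often used to scale qPCR and blots. The range of Tubb5, Actb and Actg1 over the 6 libraries was therefore set beside that of 14 commonly used reference genes. The other tubulins were not ranked, and some varied more. Tuba1b ran from 120.0 to 214.5 CPM and Tubb2a from 88.7 to 182.6 CPM. The range, highest minus lowest log2 CPM, was 0.201 for Tubb5, 0.407 for Actb and 0.460 for Actg1, ranks 4, 6 and 7 of 17 from the steadiest. Tbp, a general transcription factor, had the smallest range (0.132) and Pgk1, a glycolytic enzyme, the largest (1.71). Gapdh, another glycolytic enzyme, had a range of 0.867 and was above every control in both Foxp1cKO libraries (log2 fold change 0.48, SE 0.166, edgeR adjusted p = 0.323). Pgk1 was likewise above every control (log2 fold change 1.16, SE 0.213, edgeR adjusted p = 0.182), and neither passed the threshold. Scaling every library to Actb in place of TMM moved the median log2 fold change of all genes to 0.083 from -0.0044, a shift below 0.1. The share of genes below 0 went to 36.0% from 50.7%. Genes with an unadjusted edgeR p under 0.05 went to 1052 from 2224, so the small shift of the median does not mean that the scaling changed little.

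**Figure D5:**
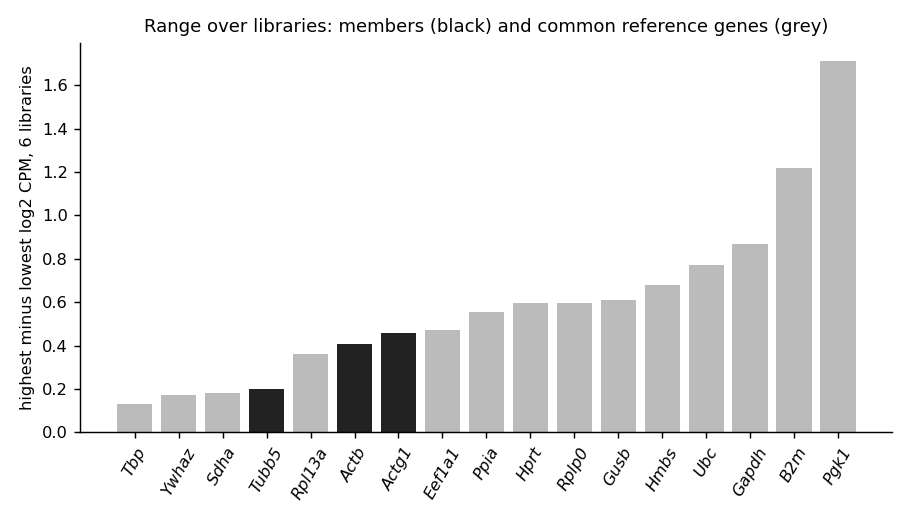
Bars give the highest minus the lowest log2 CPM over the 6 libraries (y axis) for Tubb5, Actb and Actg1 (black) and 14 common reference genes (grey), in order of range (x axis). Tubb5, Actb and Actg1 stand at 0.201, 0.407 and 0.460, below Gapdh at 0.867 and Pgk1 at 1.71.

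The genes with profiles most like those of Actb and Tubb2b were found as those with the smallest root mean square distance of log2 CPM, centred on the mean of the 6 libraries, among 10099 genes with a mean of at least 10 CPM. For Actb these were Clvs1 (distance 0.0119), R3hdm4, Entpd6, Kdm1b and Zfyve1 (0.0324), where the median distance was 0.194. Tubb5 ranked 226 and Actg1 386 by closeness to Actb. For Tubb2b they were Reep5 (0.0180), Lancl1, Tom1l2, Stoml1 and Slc2a8 (0.0362), with a median distance of 0.218. Actg1 ranked 217 and Actb 370 by closeness to Tubb2b, ahead of its neighbour Tubb2a at 2524. This distance counts the size of the swings as well as their direction. Tubb2a and Tubb2b put the 6 libraries in the same order. The controls ranged over 2.06-fold for Tubb2a and over 1.43-fold for Tubb2b, so the rank of Tubb2a does not mean an unlike order. With 6 libraries that share their depth scaling and cell mixture, small distances among so many genes are a description of these libraries.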

How the data were processed

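RNA was extracted with a Qiagen miRNeasy kit and made into TruSeq Stranded libraries. The authors aligned paired reads to mm10 with STAR and counted them per gene with HTSeq 0.9.1 in union mode, and the feature counted on is not given in the sources used here. They removed genes with low counts, and deposited whole counts of 17068 genes and VST values on a log2-like scale from DESeq2 1.30.1 in R 4.0.3. Versions are from the submitters' processing notes. The litter in the authors' model is not in the labels and was not used.

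Counts were analysed in R 4.3.3 with edgeR 4.0.16 (TMM, group alone, quasi-likelihood test, Benjamini-Hochberg over 17068 genes, threshold 0.05). SEs came from the F statistic. Log2 CPM used a prior count of 2. Alternatives were DESeq2 1.42.0, limma 3.58.1 on the deposited log2-like VST values, other scalings and filters, a robust fit, the replicate block and each library left out. Scripts were tested on simulated data. Positions, lengths and sequences came from GENCODE M21 (GRCm38), another release than the authors', and 17047 of 17068 identifiers matched without their version.

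The genes and lists were chosen with earlier results of these data known. Named genes were the isotypes, any list gene past the threshold, the 2 largest changes per list at a mean of at least 10 CPM, 5 nearest profiles of Actb and Tubb3, and Foxp1. Tubb2b took the place of Tubb3 for the profiles. The index was set to hold 4 neuronal genes and held 2. Reference genes, Acta2, Tubd1 and values of the markers are given outside the rule. Intervals and floors cover counting error or the spread between libraries as named, and PCR reads are not independent molecules.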

Additional observations from a re-analysis of the deposited data

Results flagged for a closer look

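Actb in control 4, at 1403 CPM, lay apart from the other 3 controls, which were at 1782 to 1860 CPM. On the log2 CPM scale, the gap to the nearest of them was 0.847 of the whole range of the controls, above Dixon's 95% critical value for 4 samples. With the CPM values as printed, the same ratio is smaller and lies about at that critical value. The flag is therefore borderline and depends on the scale. The 9 groups of values examined were the 8 isotypes and the index among the controls, and chance alone flags about 1 in 20. Control 4 was also the lowest control for Actg1, Tubb2a, Tubb2b and Tubb5, and had the lowest sum of neuron markers.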

How the results depend on the processing

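The count of 0 isotypes past the threshold held in all 14 alternatives, and 105 of 111 fold changes of single isotypes under alternatives kept their direction, 6 reversed and 0 passed the threshold. Actg1 reversed to -0.0455 under the replicate block, -0.033 without control replicate 1, -0.073 without control replicate 4 and -0.023 without Foxp1cKO replicate 2. Tubb2b reversed to 0.019 scaled to Actb and 0.015 without Foxp1cKO replicate 1. With each library left out in turn, Actg1 ran from -0.073 to 0.074, Tubb2b from -0.22 to 0.015, Tubb2a from -0.35 to -0.035, Tuba1b from -0.56 to -0.15, Actb from -0.19 to -0.063, Tubb4b from -0.34 to -0.18, Tubb5 from -0.15 to -0.085 and Tubg1 from -0.29 to -0.17. Each reversed value is close to 0 and the cause was not tested. The lowest adjusted p of any isotype under an alternative was 0.160, for Tubb4b. The index difference ran from -0.067 to 0.29 over the libraries left out, within 1 SD of the controls. Across all genes, the 26 calls became 507 with DESeq2, 0 with the replicate block (3027 genes at an unadjusted p under 0.05), and 2 to 96 with libraries left out, where the cause was not tested, and ranged from 23 to 31 under the other alternatives. The replicate numbers share no source beyond the label. Deviations of same-numbered libraries correlated at -0.198 and 0.0157, and the block changed no call of an isotype.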
